A study of Mus musculus with 2 samples.

Results

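The interferon-stimulated genes described here are 38 genes that interferons switch on, chosen as a list of named members of that program. All 38 were found once in both count tables, among 32285 genes. They were followed through the 10 coarse and 15 finer cell clusters that the authors deposited, and compared between 2 libraries.

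The libraries hold droplet single-cell RNA sequencing (10x Genomics, reading the 5′ end of each transcript) of live cells sorted for CD45, a surface protein of white blood cells, from the lining tissue of the mouse colon. Both came from C57BL/6 mice aged 8 weeks that drank 2.0% dextran sulphate sodium (DSS), a polymer that injures the colon epithelium, for 7 days. Plain water followed for 7 days, and the tissue was taken on day 14. One library is from wild type mice and the other is labelled E4BP4 transgenic. The design text describes the second as overexpressing E4BP4, a leucine zipper transcription factor encoded by Nfil3, in macrophages only. The promoter that drives the transgene and the number of animals in a library are not given in the sources used here. With 1 library per genotype there was no replicate, so no difference was tested. Every interval is at 95% and covers counting error only, and the UMIs of a single cell are not independent of each other.

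UMIs, which are counted RNA molecules, numbered 69346746 over 9855 barcodes in wild type and 58884332 over 10143 barcodes in the other library. The deposited clusters keep 6466 and 7026 of these barcodes as cells, with medians of 2700 and 2427.5 UMIs. Of the barcode sequences, 142 occurred in both libraries, and 67 of them were kept as cells in both. Neutrophil-like cells numbered 648 and 167 and monocyte-like cells 814 and 437, while macrophage-like cells numbered 664 and 1106. Nfil3 did not bear out the second label. Its level in macrophage-like cells was 84.4 CPM (UMIs scaled to a fixed total of all UMIs of the same cells, as counts per 1000000) in the wild type library and 73.8 CPM in the other (ratio 0.874, interval 0.724 to 1.06). Whether the transgene carries the transcript end that was counted is not given in the sources used here. The second library is therefore called the library labelled transgenic throughout.

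Interferons are secreted proteins that act through cell surface receptors and JAK kinases. Type I interferon assembles a complex that includes STAT2 and IRF9 and binds the interferon-stimulated response element (ISRE), whereas interferon gamma acts mainly through the gamma-activated site (GAS). The genes so induced encode antiviral effectors, sensors of foreign nucleic acid, GTPases that attack the vacuoles of intracellular microbes, and regulators of the response itself. Monocytes, macrophages and neutrophils of inflamed tissue can all carry this program.

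The DNA just before the start of these genes shows which of them carry the letters of either element. The sequences below are RefSeq promoter stretches on build GRCm38.p6, written 5′ to 3′ on the strand of the gene and ending at or near the annotated start. Capitals mark matches to the ISRE (GAAA, any 2 bases, GAAA) or the GAS (TTCNNNGAA) on either strand, and matches may overlap. Isg15, Ifit1, Ifit3 and Bst2 are shown as antiviral effectors, Gbp2, Irgm1 and Igtp as GTPases, and Irf1 and Irf7 as regulators of the response. Bases annotated as untranslated region were left out, except around the single Gbp2 site, and the Irgm1 stretch lies in an exon of a non-coding Irgm1 transcript.
Isg15 (chr4:156200819-156200978, minus strand): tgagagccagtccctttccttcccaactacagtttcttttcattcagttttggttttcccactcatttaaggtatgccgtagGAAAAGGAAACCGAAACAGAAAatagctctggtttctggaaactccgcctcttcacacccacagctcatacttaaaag
Ifit1 (chr19:34640744-34640870, plus strand): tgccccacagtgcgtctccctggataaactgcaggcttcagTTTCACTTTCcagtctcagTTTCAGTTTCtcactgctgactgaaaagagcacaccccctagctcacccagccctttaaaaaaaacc
Ifit3 (chr19:34583369-34583528, plus strand): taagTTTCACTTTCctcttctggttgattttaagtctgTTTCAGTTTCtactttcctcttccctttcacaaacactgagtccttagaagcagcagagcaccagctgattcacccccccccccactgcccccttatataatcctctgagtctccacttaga
Bst2 (chr8:71537473-71537632, minus strand): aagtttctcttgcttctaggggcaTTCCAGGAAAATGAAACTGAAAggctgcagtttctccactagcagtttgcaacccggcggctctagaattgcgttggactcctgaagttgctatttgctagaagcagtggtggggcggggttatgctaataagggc
Gbp2 (chr3:142620594-142620623, plus strand): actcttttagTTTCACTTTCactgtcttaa
Irgm1 (chr11:48871421-48871580, minus strand): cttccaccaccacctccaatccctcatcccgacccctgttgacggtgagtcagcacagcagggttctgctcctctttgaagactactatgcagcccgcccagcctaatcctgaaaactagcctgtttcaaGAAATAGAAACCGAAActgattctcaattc
Igtp (chr11:58199396-58199555, plus strand): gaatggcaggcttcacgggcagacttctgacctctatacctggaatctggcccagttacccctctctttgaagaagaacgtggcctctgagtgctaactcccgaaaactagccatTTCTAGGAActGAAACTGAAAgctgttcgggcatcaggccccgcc
Irf1 (chr11:53769854-53770013, plus strand): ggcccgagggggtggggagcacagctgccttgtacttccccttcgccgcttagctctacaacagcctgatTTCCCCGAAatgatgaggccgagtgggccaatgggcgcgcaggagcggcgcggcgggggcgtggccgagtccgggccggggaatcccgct
Irf7 (chr7:141266482-141266584, minus strand): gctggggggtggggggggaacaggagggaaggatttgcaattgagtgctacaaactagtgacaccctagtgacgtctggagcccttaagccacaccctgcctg

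Isg15 held 3 overlapping ISRE matches in a single run, Ifit1 and Ifit3 held 2 spaced ones each, and Irgm1 held 2 that overlap. In Bst2 a GAS match runs into 2 overlapping ISRE matches, and in Igtp a GAS match lies just before an ISRE match. Irf1 held a GAS match only, and the letters of neither element occur in the Irf7 stretch. RefSeq promoter stretches of 250 bases before to 50 after the start were found for 28 of the 38 members. Oas2, Usp18, Ifi204, Zbp1, Gbp4, Ifi27l2a, Rtp4, Parp14, Ly6e and Dhx58 were not matched. Some genes have several stretches, and a gene was counted once if any of them held a match. An ISRE match was present in 16 of the 28 (57.1%), against 3.99% of all 27025 genes with stretches of this length. A GAS match was present in 10 (35.7%), against 9.55% of all genes. The D-box (TTANGTAA), the element that E4BP4 binds, matched 0 of the 28 and 2.72% of all genes. These are matches of letters and not measured binding, and no match says only that the letters are not in the window.

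**Figure D1:**
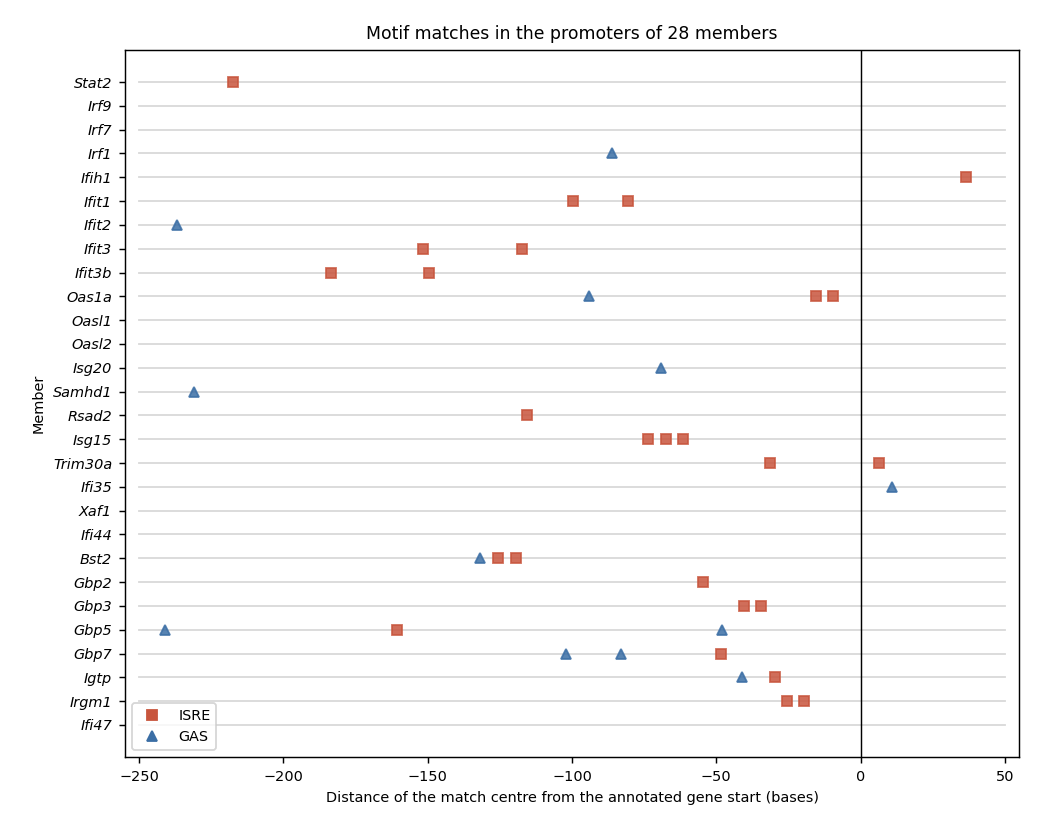
Position of ISRE matches (squares) and GAS matches (triangles) in the promoter stretches of 28 members, as the distance in bases of the match centre from the annotated start. Most matches lie before the start, and 16 members hold an ISRE match, 10 a GAS match.

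Levels of the members differed more between genes and between cell types than between the libraries. The members took 77331 UMIs of the wild type library and 77325 of the other, and few genes made up most of them. Ly6e, a surface protein anchored by lipid, held 42.2% and 40.5% of these UMIs. Ifi27l2a, a small membrane-associated protein, held 18.1% and 19.2%. The highest 5 members (Ly6e, Ifi27l2a, Samhd1, Isg15 and Bst2) together held 76.9% and 76.4%. A sum over the list therefore follows mainly Ly6e and Ifi27l2a, and the members are described one by one or by role below. UMI counts from transcript ends do not grow with gene length, but capture differs between genes, so levels are compared here mainly across cells for the same gene.

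Several antiviral effectors were highest, among the 10 coarse clusters, in neutrophil-like cells. Isg15 (chr4:156199424-156200818, minus strand, build mm10) encodes a ubiquitin-like protein that is joined to other proteins. In neutrophil-like cells wild type Isg15 was at 532 CPM (504 to 561) and that of the other library at 1068 CPM (959.7 to 1186). In monocyte-like cells it was 344 and 467 CPM, in macrophage-like cells 202 and 153 CPM, and in B-like cells 21.2 and 21.0 CPM. The order of these 4 cell types was the same in both libraries, and neighbours in it differed by more than counting error. Rsad2 (chr12:26442746-26456452, minus strand) encodes viperin, an enzyme that makes a chain-terminating nucleotide. It stood at 78.6 and 188 CPM in neutrophil-like cells, against 12.9 and 30 CPM in monocyte-like and 15.5 and 17.6 CPM in macrophage-like cells. Oasl2, a relative of the synthetases that activate RNase L, stood at 143 and 209 CPM in neutrophil-like cells and at 42.7 and 53.1 CPM in monocyte-like cells. Rtp4, a chaperone of membrane receptors, and Isg20, an exonuclease that degrades RNA, were also highest in neutrophil-like cells. In wild type, fibroblast-like cells came second for Rsad2 (39.7 CPM), Oasl2 (59.6 CPM) and Rtp4 (75.5 CPM). In the other library monocyte-like cells came second for these genes. In each library the neutrophil-like cluster was the highest of the 10 coarse clusters for the largest number of members: 10 of 38 in wild type and 14 of 38 in the other. This ranking asked for no least number of UMIs, and the share of all genes that peak there was not taken. Ifit3b of the library labelled transgenic, for example, was at 6.05 CPM there and at 6.00 CPM in monocyte-like cells. In neutrophil-like cells 52.1% of all genes were at least 1.5-fold higher in that library.

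Other members peaked elsewhere. Ly6e was highest in B-like cells, at 2495 and 2571 CPM, and was found in 98.0% and 98.4% of them. Bst2, or tetherin, holds budding virus at the cell surface and is also a marker of plasmacytoid dendritic cells, the main producers of type I interferon. It was highest in the dendritic-like cluster, at 1321 and 1144 CPM. In the finer plasmacytoid dendritic-like cluster (22 and 48 cells), which Bst2 helped to name, it reached 6575 and 5110.2 CPM. Irf7, the factor that drives interferon alpha genes, stood there at 222 and 155 CPM, its intervals of 145 to 326 and 111 to 211 overlapping. Ifi47 and Igtp, GTPases of the immunity-related (IRG) family, were highest in the lymphocyte cluster led by Gzma, Il17a and Xcl1, where Igtp stood at 77.9 and 76.8 CPM. Ifi204, a DNA sensor, stood at 72.4 and 71.6 CPM in macrophage-like and at 80.5 and 104 CPM in monocyte-like cells, but at 1.11 and 1.66 CPM in B-like cells.

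**Figure D2:**
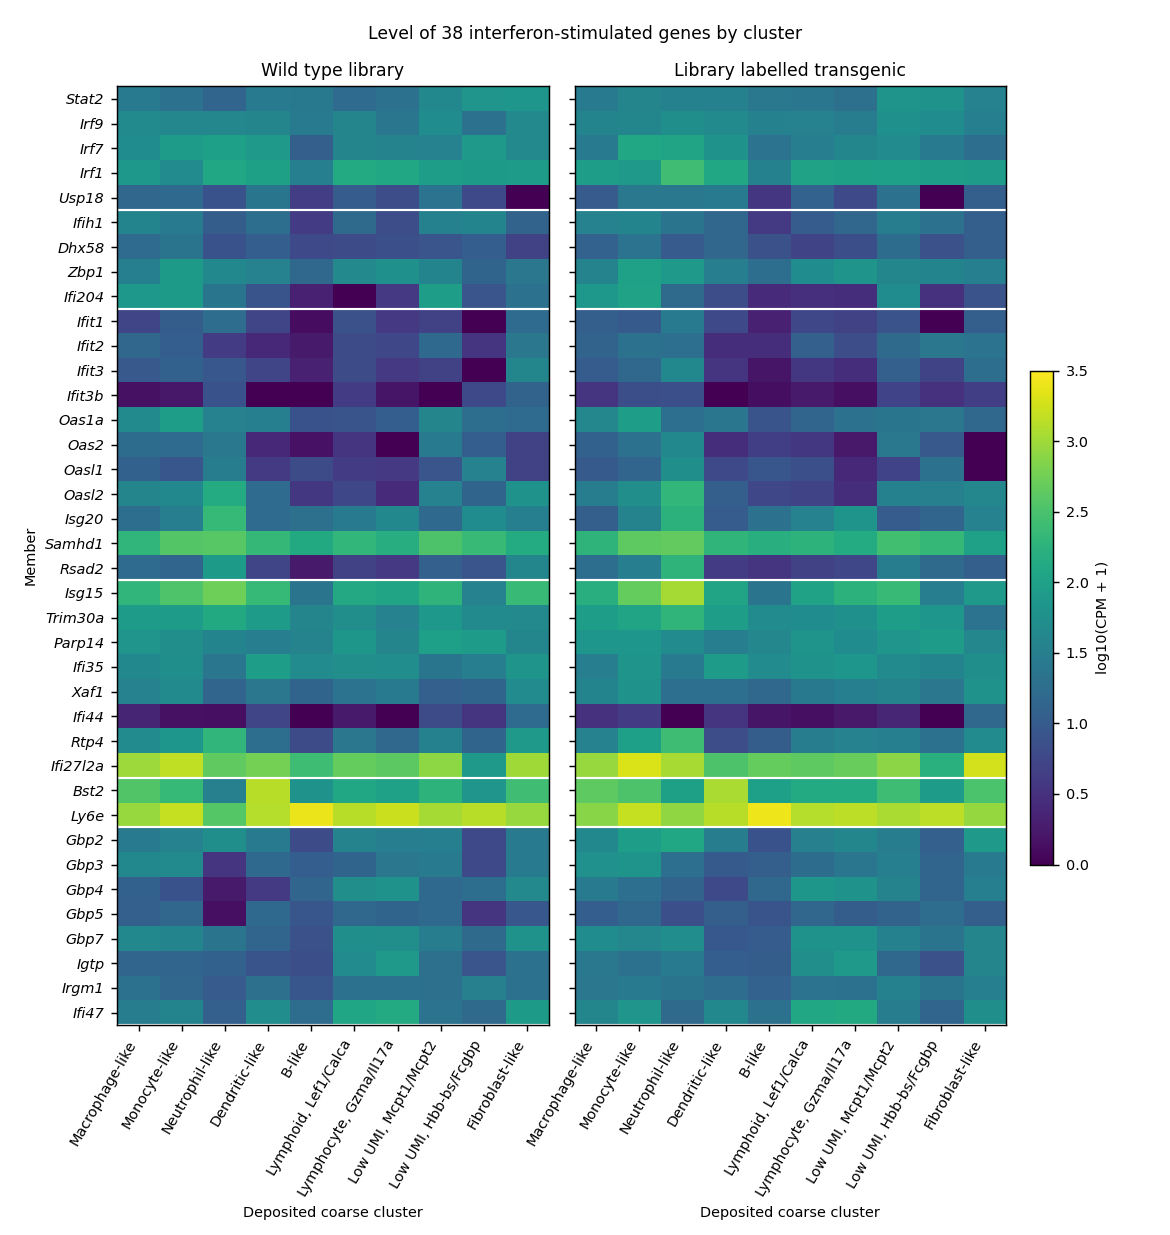
Level of the 38 members as log10(CPM + 1) in the 10 coarse clusters of each library, with white lines between the roles of the genes. Ly6e and Ifi27l2a are high nearly everywhere, Bst2 peaks in dendritic-like cells, and Isg15, Rsad2, Oasl2 and Rtp4 peak in neutrophil-like cells.

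Members with like levels across cell types were picked out by rank correlation of their levels over the 15 finer clusters, taken over both libraries. Points share the same libraries and low members are noisy, so the values are descriptions. The strongest likeness was between Oas1a, which makes the second messenger for RNase L, and Dhx58, an RNA sensor of the RIG-I family (Spearman's rho 0.91). Isg15 was most like Ifit1 (0.86), a protein that binds viral RNA ends, and Rsad2 was most like Oasl2 (0.86). Among the GTPases, Igtp was most like Gbp4 (0.79) and Gbp7 (0.77). Ly6e ran opposite to Rsad2 (-0.70) and Ifi47 opposite to Oasl1 (-0.77). The members therefore did not follow a single pattern. Among the coarse clusters Isg15, Rsad2 and Oasl2 were highest in neutrophil-like cells, and Igtp, Gbp4 and Ifi47 in the 2 lymphoid clusters. Among the finer clusters wild type Isg15 was highest in that led by Cd209a, Fscn1 and Mcpt1, at 569 CPM against 532 CPM in neutrophil-like cells.

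The effectors were also uneven within a cell type. To compare cells of unequal depth, each cell was thinned to 1000 UMIs and shallower cells were left out. A set of 17 early type I genes (Isg15, Ifit1, Ifit2, Ifit3, Ifit3b, Rsad2, Usp18, Oas1a, Oas2, Oasl1, Oasl2, Ifi44, Irf7, Rtp4, Zbp1, Dhx58 and Ifih1) was counted in each. Among neutrophil-like cells, at least 3 UMIs of the set were held by 98 of 584 in wild type (16.8%, 13.8% to 20.1%) and 49 of 154 in the other library (31.8%, 24.6% to 39.8%). The median cell held 1 in both, and the highest held 16 and 26. Among monocyte-like cells the shares were 8.36% (6.55% to 10.5%) and 11.7% (8.81% to 15.1%), and among macrophage-like cells 3.49% (2.18% to 5.29%) and 3.19% (2.21% to 4.45%). In B-like cells, the low reference, they were 0.0434% and 0.233% at median depths of 2445 and 2235 UMIs before thinning. The intervals did not overlap in neutrophil-like cells, and in macrophage-like cells they largely coincide. In neutrophil-like cells 52.1% of all genes were at least 1.5-fold higher in the library labelled transgenic, with a median log2 ratio of 0.63, and the neutrophil markers summed to 261962 and 106349 CPM. The part of this shift in the early-set shares was not tested. The early set and the GTPases were only loosely linked within a type: their Pearson correlation was 0.32 and 0.22 across 813 and 437 monocyte-like cells and 0.19 and 0.12 across 601 and 1034 macrophage-like cells, all weak in sparse counts of the same cells.

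**Figure D3:**
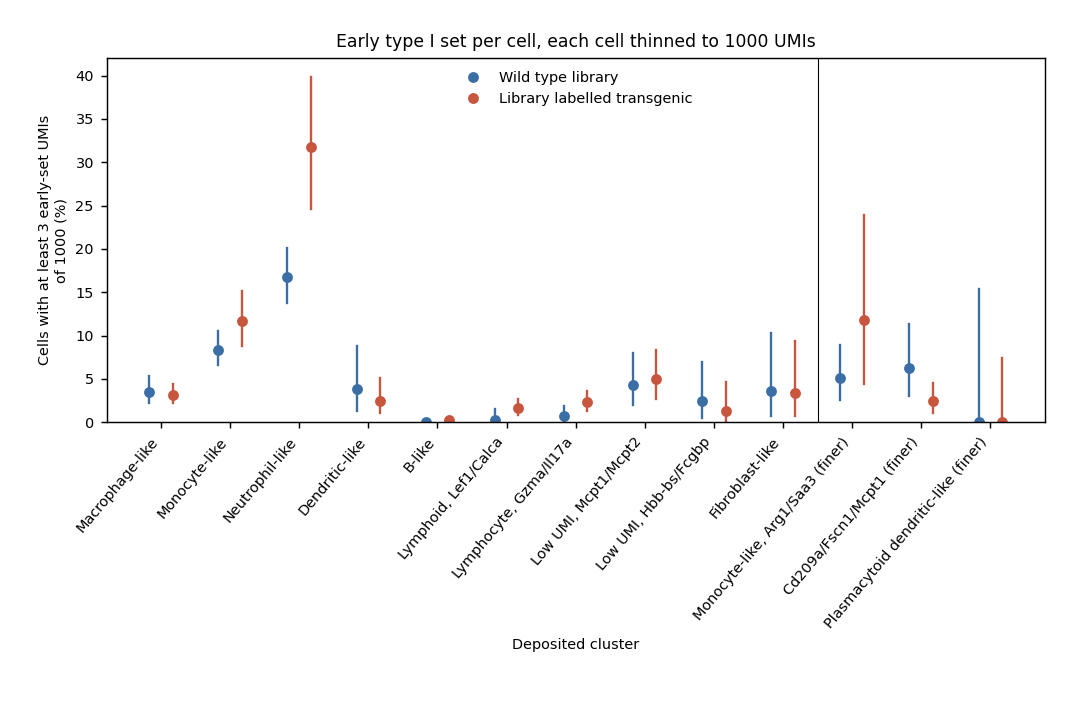
Share of cells (%) with at least 3 early-set UMIs after thinning to 1000 UMIs, by cluster and library, with exact 95% intervals. Neutrophil-like cells are highest, at 16.8% and 31.8%, while B-like cells are below 1% in both libraries.

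In macrophage-like cells, the cells said to overexpress E4BP4, most members differed little between the libraries. A member was counted as higher or lower from a ratio of 1.5 or its inverse, with at least 20 UMIs over both libraries. Of 36 members with that many UMIs, 4 were higher (Ifit1, Gbp2, Gbp4 and Igtp), against 8.66% of all 10213 genes, and 2 were lower (Irf7 and Isg20), against 8.52% of all genes. Both shares are near the background. Weighting the finer clusters within these cells equally gave 1 higher and 14 lower, with no share of all genes taken. That weighting used 2 finer clusters. The macrophage-like one gave 587 and 994 cells, and the larger monocyte-like one, of the same weight, only 41 and 41. Adding the barcodes left out for their high gene number gave 7 higher (Ifit1, Ifit2, Ifit3, Ifit3b, Oasl1, Rsad2 and Gbp4) and 0 lower. The shares of all genes were then 10.5% higher and 7.26% lower. The median log2 ratio of the members was -0.05, beside -0.04 for all genes.

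By role, 3 of 8 GTPases were higher and 0 lower in macrophage-like cells, with a median log2 ratio of 0.43. Guanylate-binding proteins (GBPs) coat the vacuoles of microbes and help to break them open. Gbp2 (chr3:142620602-142638008, plus strand), whose site is shown above, stood at 26.2 CPM in wild type and 42.3 CPM in the other library (ratio 1.61, interval 1.19 to 2.22). Gbp4 (chr5:105115767-105139586, minus strand) stood at 11.1 and 26.6 CPM (ratio 2.39, interval 1.53 to 3.88). Igtp (chr11:58199556-58207591, plus strand), an IRG family GTPase, stood at 12.9 and 23.9 CPM (ratio 1.85, interval 1.21 to 2.93). Its ratio became 0.942 with the finer clusters weighted equally, where 41 and 41 cells weigh as much as 587 and 994. Gbp3, at 42.6 and 58.6 CPM, had a ratio of 1.37 (1.08 to 1.77), and Irgm1, an autophagy-linked regulator of the family, 1.21 (0.827 to 1.79). Gbp5, an activator of inflammasomes, stood at 10.7 and 10.0 CPM, so the GTPases were not uniformly higher.

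Among members of the type I side, Irf7 (chr7:141262706-141266481, minus strand) stood at 49.7 CPM in wild type and 27.9 CPM in the library labelled transgenic (ratio 0.562, interval 0.426 to 0.741), and had a ratio of 0.734 with the barcodes of high gene number added. Isg20 stood at 17.3 and 10.3 CPM, 0.595 (0.370 to 0.955), and with those barcodes had a ratio of 1.16. The 5 cells of each library with most early-set UMIs held 19.1% and 8.05% of that set's UMIs. Without them no member, Irf7 and Isg20 included, was counted as lower. Isg15 was at 202 and 153 CPM, 0.757 (0.668 to 0.859), within the fold used. Stat2 and Irf9, which encode parts of the type I complex, had ratios of 0.965 (0.695 to 1.35) and 0.843 (0.647 to 1.10). Ifit1 stood at 4.44 and 10.3 CPM (ratio 2.32, interval 1.13 to 5.22). It rests on 10 and 38 UMIs, of which 5 cells of each library held 50% and 42.1%, and its ratio was 0.641 with the finer clusters weighted equally. The early set as a whole had a median log2 ratio of -0.31.

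Other cell types' RNA moved beside these differences. In macrophage-like cells, 9 of 10 T cell markers were higher in the library labelled transgenic, their sum being 248 and 552 CPM, and the sum of NK cell markers was 12.9 and 149 CPM. Neutrophil markers went the other way, at 514 and 92.2 CPM, as did 9 of 10 monocyte markers, at 1902 and 699 CPM. Without the cells that held any UMI of 17 T or NK markers, 493 and 600 macrophage-like cells were left, with 3 members higher and 2 lower. No share of all genes was taken for these cells. Gbp4 then had a ratio of 2.68, Gbp2 1.38 and Igtp 1.12, so of the 3 GTPases only Gbp4 kept a ratio above 1.5. Irf7 had a ratio of 0.776 in those cells and Ifit1 3.07. The part of neutrophil and monocyte RNA was not tested.

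**Figure D4:**
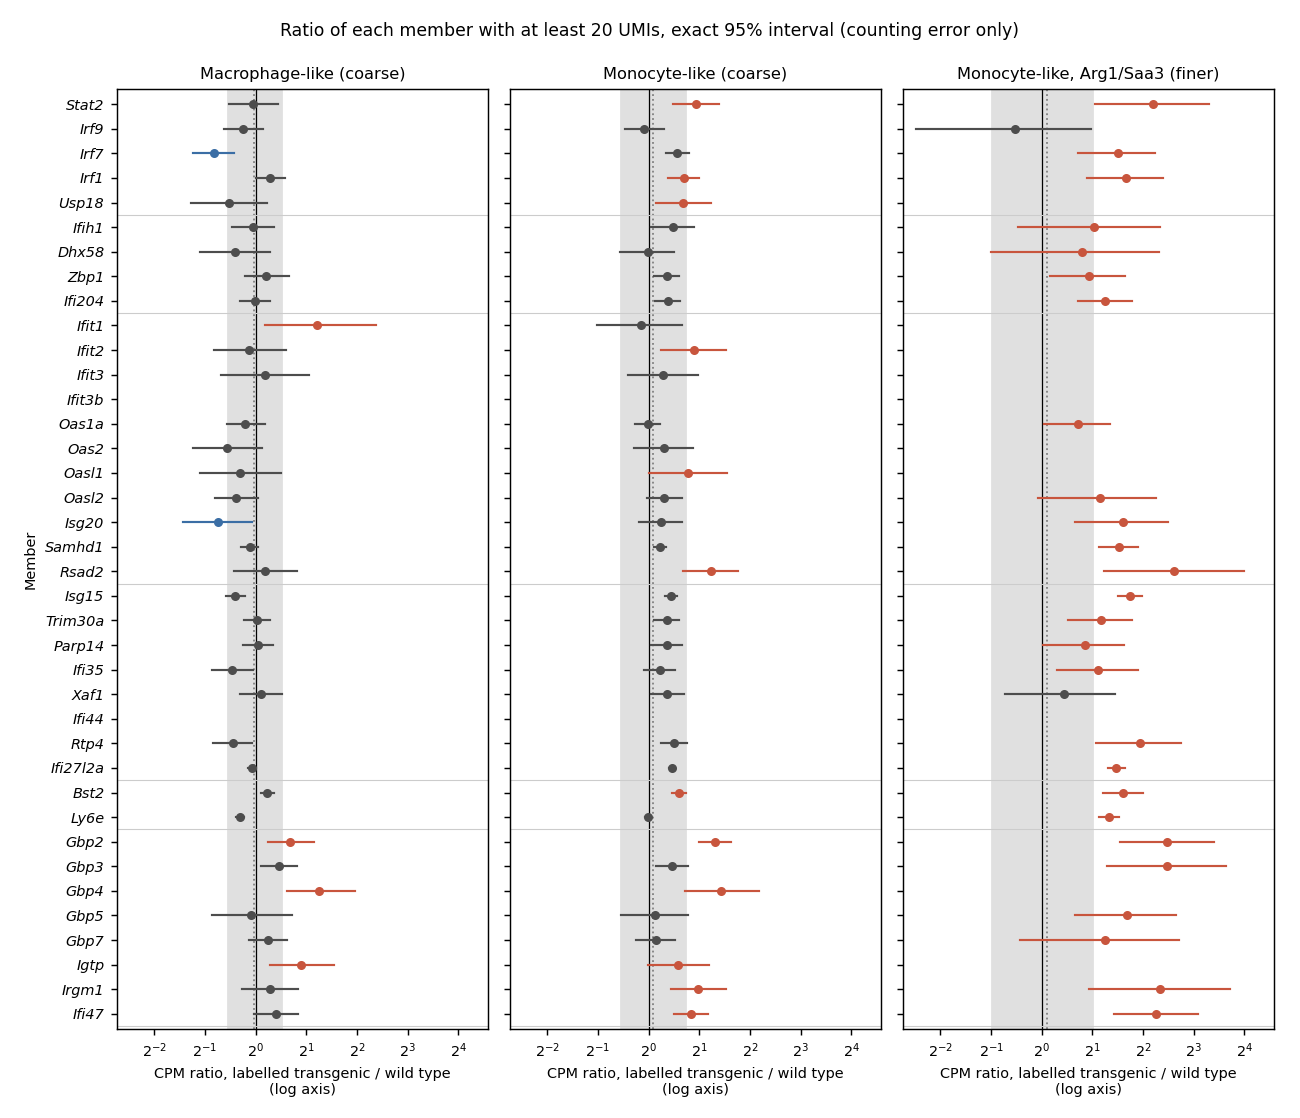
CPM ratio of each member (library labelled transgenic over wild type, log axis) with its exact 95% interval in macrophage-like cells, monocyte-like cells and the finer monocyte-like cluster led by Arg1 and Saa3. Coloured points are past 1.5-fold, the grey band spans the 10th to 90th percentile of all genes with 20 UMIs or more, and the dotted line is their median; 4, 12 and 26 members are higher.

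In monocyte-like cells members of several roles were higher in the library labelled transgenic. Of 36 members with enough UMIs, 12 were higher, against 14.9% of all 9302 genes, and 0 were lower, against 9.05%. The median log2 ratio of the members was 0.41, beside 0.08 for all genes. By role, 5 of 8 GTPases, 3 of 5 signalling genes, 3 of 10 RNA and nucleotide effectors and 1 of 2 membrane proteins were higher. None of 4 sensors and none of 7 ubiquitin-like and other effectors reached 1.5-fold, although the median log2 ratio of each was 0.37. With the finer clusters weighted equally, 24 members were higher, with no share of all genes taken under that weighting. That weighting used 2 finer clusters. The larger monocyte-like one gave 583 and 336 cells. The one led by Arg1, Nos2 and Saa3, of the same weight, gave 202 and 50. Cells of the finer cluster led by Cd209a, Fscn1 and Mcpt1 (18 and 46) were left out of it. Neutrophil markers stood at 2528 and 167 CPM in all the monocyte-like cells, dendritic markers at 167 and 645 CPM and macrophage markers at 4203 and 5650.1 CPM. Their part was not tested. T cell markers stood at 17.8 and 73.9 CPM, and without the cells holding a T or NK marker 14 members were higher and 1 lower. Here too no share of all genes was taken.

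Gbp2 stood at 34.9 CPM (29.7 to 40.8) in wild type and 86.8 CPM (74.9 to 100.2) in the other library (ratio 2.49, interval 2.00 to 3.10). Rsad2 stood at 12.9 and 30 CPM, 2.33 (1.61 to 3.38), though the 5 highest cells held 43.1% and 50.8% of its UMIs. Stat2 (chr10:128270559-128292849, plus strand) stood at 19.8 and 37.9 CPM, 1.91 (1.40 to 2.61). These are a GTPase, an effector and a carrier of the signal, so members of several roles differed. Irgm1 (chr11:48861968-48871683, minus strand) stood at 13.3 and 26.3 CPM, 1.97 (1.35 to 2.89), and Ifi47 at 37.1 and 66.5 CPM, 1.79 (1.42 to 2.25). Bst2 stood at 217 and 327 CPM, 1.51 (1.37 to 1.66). Irf7 lay just under the fold at 84.0 and 124 CPM, 1.48 (1.26 to 1.73), as did Ifi27l2a at 1478 and 2030.1 CPM, 1.37 (1.32 to 1.43). Irf9 (41.1 and 38.8 CPM), Ifit1 (9.78 and 8.78 CPM) and Ly6e (1549.9 and 1536 CPM) had intervals that include 1.

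The monocyte-like cells are a mixture whose make-up differed between the libraries. The larger finer monocyte-like cluster gave them 583 and 336 cells. The finer cluster led by Arg1, Nos2 and Saa3, genes of inflammatory monocytes, gave 202 and 50, and the finer cluster led by Cd209a, Fscn1 and Mcpt1 gave 18 and 46. In the larger finer cluster the members' summed level was 6149 and 6404 CPM, with 6 of 36 members higher, against 11.9% of all genes, and 0 lower, against 8.84%. The Arg1 cluster, taken whole, held 217 and 51 cells. Its summed member level was 2404 CPM in wild type and 6668 CPM in the library labelled transgenic. Of 28 members with enough UMIs, 26 were higher, against 23.6% of all 5329 genes, and 0 were lower, against 19.0%. In log2, the members' median ratio was 1.48 and that of all genes 0.11. The other 2 were Irf9, at 24.2 and 16.8 CPM, and Xaf1, an apoptosis factor, at 31.0 and 41.9 CPM.

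Each role was represented in the Arg1 cluster. Higher were 3 of 4 signalling genes, 4 of 4 sensors, 5 of 5 RNA and nucleotide effectors, 6 of 7 other effectors and 2 of 2 membrane proteins. All 6 GTPases with enough UMIs were higher, with a median log2 ratio of 2.29. Gbp2 stood at 16.7 and 92.2 CPM (ratio 5.54, interval 2.92 to 10.5), with 86.4% and 68.2% of its UMIs in 5 cells, and Ifi47 at 21.9 and 105 CPM, 4.77 (2.68 to 8.44). Stat2 stood at 12.9 and 58.7 CPM, 4.56 (2.08 to 9.83). The members with most UMIs were higher too. Isg15 stood at 309.6 and 1035 CPM, 3.34 (2.84 to 3.93). Ifi27l2a stood at 658 and 1823 CPM, 2.77 (2.46 to 3.11), and Ly6e at 499 and 1249 CPM, 2.50 (2.18 to 2.88). The median cell held 2 member UMIs of 1000 in wild type and 5 in the other library, a sum in which Ifi27l2a and Ly6e weigh heavily. For the GTPases the median was 0 in both libraries. Of the early-set UMIs, 25.6% and 51.6% lay in the 5 highest cells, which are a larger part of 51 cells than of 217. After thinning, 32.4% of wild type cells and 52.9% of the others held an early-set UMI, with medians of 0 and 1.

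Without those 5 cells of each library, 19 of 24 members in the Arg1 cluster were higher and 1 was lower, with no share of all genes taken. Over all cells of the cluster, neutrophil markers stood at 4040.1 CPM in wild type and 243 CPM in the other library, monocyte markers at 21225 and 10218 CPM, and macrophage markers at 1300.3 and 2519 CPM. Their part in the difference was not tested. In the finer cluster led by Cd209a, Fscn1 and Mcpt1 (176 and 376 cells), the direction was the opposite. There 11 of 33 members were lower, against 13.1% of all genes, and 1 was higher, against 10.9%. Isg15 stood at 569 and 154 CPM (ratio 0.270, interval 0.232 to 0.314), and 71.9% of its wild type UMIs lay in 5 cells. Without the 5 highest cells of each library, 6 of 27 members were lower there, again with no share of all genes taken. Neutrophil markers in this cluster stood at 1025 and 39.2 CPM, and their part was not tested.

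**Figure D5:**
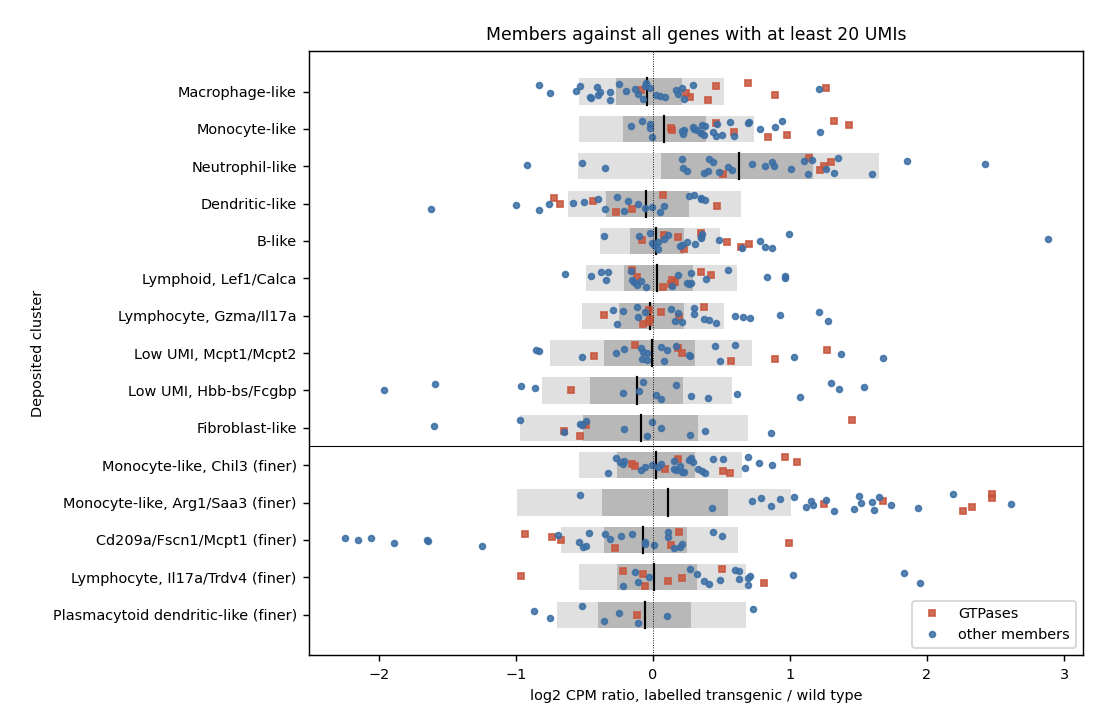
log2 CPM ratio of the members (squares, GTPases; circles, other members) in each cluster, over bars for the middle 50% (dark) and the 10th to 90th percentile (light) of all genes with at least 20 UMIs, with a line at their median. All but 1 member (Irf9) lie to the right of the gene median in the finer monocyte-like Arg1/Saa3 cluster (26 of 28 higher), and in neutrophil-like cells the median of all genes is itself shifted, to 0.63.

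Of the 10 coarse clusters, neutrophil-like cells had the highest levels of Isg15, Rsad2 and Oasl2. A difference between their libraries cannot be read from the members alone. Of 32 members, 18 were higher in the library labelled transgenic, against 52.1% of all 6048 genes, and 1 (Oas1a, ratio 0.529, with an interval that includes 1) was lower, against 10.2%. Members had a median log2 ratio of 0.84, against 0.63 for all genes. Scaling by the median of gene ratios instead left 8 members higher and 3 lower, with no share of all genes taken under that scaling. Beside the lower sum of neutrophil markers given above, the macrophage markers' sum was 719 and 2385 CPM. The median neutrophil-like cell held 3528.5 and 1751 UMIs. Beside that median of all genes, Isg15 had a ratio of 2.01 (1.78 to 2.26), Rsad2 2.39 (1.77 to 3.19) and Ifit3, a partner of Ifit1, 5.37 (2.51 to 11.2). In the library labelled transgenic 5 cells held 85.7% of the Ifit3 UMIs and 54.8% of those of Rsad2. The part of the other cell types' RNA in these ratios was not tested.

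In dendritic-like cells, of 28 members with enough UMIs, 6 were lower (Isg15, Rtp4, Ifi27l2a, Isg20, Gbp3 and Gbp7), against 11.4% of all genes, and 0 were higher, against 11.5%. In log2, the members' median ratio was -0.19 and that of all genes -0.05. With the left-out barcodes of high gene number added, 309 and 434, the medians were -0.05 and -0.01. Of 36 members 8 were then lower, against 6.59% of all genes, and 2 higher, against 8.86%, and Isg15, at a ratio of 0.704, was within the fold. The finer Cd209a cluster supplied 108 of the 132 wild type cells and 225 of the 282 others, and its neutrophil markers summed to 1025 and 39.2 CPM, whose part was not tested. In the kept cells Isg15 stood at 219.7 CPM (186 to 258) and 110.2 CPM (94.6 to 128) (ratio 0.502, interval 0.402 to 0.628), with 53.9% and 41.5% of its UMIs in 5 cells. Ifi27l2a stood at 589.8 and 333 CPM, 0.564 (0.495 to 0.643). Of the signalling members, Irf1 stood at 95.4 and 122 CPM and Irf7 at 73.7 and 61.4 CPM, both with intervals of the ratio that include 1.

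B-like cells had low effector levels in both libraries, and their difference was small but precisely counted. Of 31 members, 8 were higher, against 7.22% of all 10665 genes, and 0 lower, against 5.61%. Members had a median log2 ratio of 0.25, against 0.02 for all genes. Ifi27l2a stood at 259.5 and 476 CPM (ratio 1.83, interval 1.72 to 1.95), Bst2 at 59.9 and 93.9 CPM, 1.57 (1.37 to 1.80), and Irf7 at 10.3 and 20.5 CPM, 1.99 (1.45 to 2.75). Neutrophil markers in these cells stood at 526 and 26.9 CPM, and their part was not tested. Isg15, Stat2 and Ly6e had ratios between 0.986 and 1.03. Oas2 was counted 3 times in wild type and 19 times in the other library (ratio 7.38, interval 2.17 to 38.9). In the lymphocyte cluster led by Gzma, Il17a and Xcl1, 6 of 29 members were higher, against 8.22% of all genes, and 0 lower, against 8.27%. They were Isg15, Rtp4, Trim30a, Isg20, Oas1a and Ifih1, an RNA sensor also called MDA5. Rtp4 there stood at 14.2 and 34.5 CPM (ratio 2.42, interval 1.54 to 3.94), and Isg15 at 110.4 and 175 CPM, 1.58 (1.34 to 1.88). None of the 8 GTPases reached 1.5-fold, and their median log2 ratio was -0.02. The NK marker sum in this cluster was 2357 and 4170 CPM.

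The finer lymphocyte cluster led by Il17a, a cytokine gene of type 17 lymphocytes, held 242 and 359 cells. Of 26 members with enough UMIs, 10 were higher in the library labelled transgenic, against 12.6% of all genes, and 1 (Gbp5) was lower, against 8.73%. Members had a median log2 ratio of 0.39, against 0.01 for all genes. Rtp4 had a ratio of 3.87, Ifih1 3.56 and Isg15 1.61, while Gbp5 had 0.516. In the finer plasmacytoid dendritic-like cluster (22 and 48 cells) 9 members had enough UMIs. Irf1 was higher there, at 205 and 341 CPM, and Samhd1 and Ifi27l2a were lower, with ratios of 0.547 and 0.596. The shares of all genes past the fold were 12.8% higher and 15.3% lower. No plasmacytoid dendritic-like cell held 3 early-set UMIs of 1000, which allows shares of up to 15.4% and 7.40%.

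In the lymphoid cluster led by Lef1, Calca and Dapl1, 3 of 30 members were higher, against 10.7% of all genes, and 1 lower, against 7.31%, shares near the background. In fibroblast-like cells (103 and 107), 2 of 17 were higher (Ifi27l2a and Gbp2), against 13.5%, and 4 lower, against 21.3%. Ifi27l2a stood there at 989 and 1798 CPM (ratio 1.82, interval 1.56 to 2.12), while Isg15 stood at 230.4 and 75.8 CPM, 0.329 (0.192 to 0.546). The cluster with mast cell protease genes and few UMIs had 6 of 29 higher, against 13.1%, and 2 lower, against 14.8%. The low-UMI cluster with haemoglobin and epithelial genes had 5 of 18 higher, against 9.50%, and 5 lower, against 18.6%.

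Over all kept cells, 5 of 38 members were higher (Ifit2, Ifi44, Bst2, Gbp4 and Igtp), against 13.6% of all genes, and 2 lower (Oasl2 and Isg20), against 7.82%. Oasl2 stood at 35.0 and 20.2 CPM, 0.578 (0.510 to 0.653), and Isg20 at 49.5 and 29.0 CPM, 0.585 (0.527 to 0.649). Both are highest in neutrophil-like cells, which were 648 and 167, and the part of these cell numbers was not tested. Within those cells Oasl2 had a ratio of 1.46 (1.11 to 1.89), while Isg20 was lower, at 223 and 176 CPM. The median log2 ratio of all genes there was 0.63.

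The rest of the pathway was read from a list of 76 other genes. Of the ligands, interferon beta (Ifnb1) was counted 0 times in wild type and 4 times in the other library. Interferon gamma (Ifng; chr10:118441046-118445892, plus strand) was counted 113 and 538 times, or 5.51 and 27.0 CPM, a ratio of 4.89. In the lymphocyte cluster led by Gzma, Il17a and Xcl1 it stood at 53.5 and 167 CPM (ratio 3.12, interval 2.49 to 3.94), and 5 cells held 55.3% and 71.5% of these UMIs. In macrophage-like cells Ifng was counted 0 and 25 times, which with 3 counts as the floor makes it at least 5.09-fold higher, in 15 cells and beside the T and NK markers given above. In monocyte-like cells it was counted 1 and 0 times.

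The receptors for both kinds of interferon lay within 1.5-fold in both cell types: in macrophage-like cells Ifnar1 stood at 109 and 86.8 CPM and Ifngr1 at 417 and 314 CPM. Socs1, a feedback inhibitor of the JAK kinases, was higher in both, with ratios of 2.39 (1.25 to 4.95) and 1.85 (1.02 to 3.33). Of the 68 pathway genes with enough UMIs in macrophage-like cells, 11 were higher and 7 lower, against 8.66% and 8.52% of all genes. Of 63 in monocyte-like cells 15 were higher and 1 lower, against 14.9% and 9.05%. Those higher in both included Nlrc5, a regulator of MHC class I genes, at 13.3 and 23.1 CPM and at 9.11 and 21.7 CPM. Those higher in monocyte-like cells included Cmpk2, a nucleotide kinase whose gene lies beside Rsad2, at 2.45 and 11.5 CPM, and the helicase Ddx60 at 1.78 and 8.31 CPM. Ifitm1, of the IFITM family that blocks virus entry, was lower in both, at 386 and 81.1 CPM and at 1867 and 779.7 CPM. In the Arg1 cluster 28 of 47 pathway genes were higher and 1 was lower, against 23.6% and 19.0% of all genes. There Cxcl10, a chemokine that draws T cells, stood at 134 and 616 CPM (ratio 4.60, interval 3.67 to 5.76), with 96.6% and 84.4% of its UMIs in 5 cells, and the receptors again lay within 1.5-fold.

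Many members have near copies in the genome, which limits how far a read names 1 gene. Of the 50-base stretches in the first 500 bases of each transcript, Oas1a shared 85.6% with another gene, Ifi204 84.0%, Ifit3b 60.1%, Ifit3 50.1%, Ifit1 29.5%, Gbp4 27.0% and Igtp 24.2%. Igtp and Irgm2 also start near each other on the same strand. Values of these members are uncertain to that extent, and how the counting treated shared reads is not given in the sources used here.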

How the data were processed

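The members, gene lists and rules were chosen with earlier results of these data known. The deposited count tables hold UMI counts of 32285 genes per barcode. The authors' deposited cell table gives clusters and, as percent, the mitochondrial and immunoglobulin share of each barcode's UMIs. Cell Ranger 5.0.0, Seurat 4.0 and build mm10 are named, with no role, per the submitters' processing notes. Cells absent from that table (gene number above 2200, immunoglobulin above 5%, and others) were left out. Unmapped sample columns numbered 0.

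UMIs were summed per cluster and library and divided by the cluster's total (CPM). Clusters were named from fixed markers. Intervals were exact Poisson for levels, exact conditional binomial for ratios and Clopper-Pearson for shares. Genes under 20 UMIs in sum were not compared, and against 0 counts 3 counts stood as the floor. The ratio intervals were tried on simulated Poisson counts per gene for macrophage-like and monocyte-like cells. That simulation has no single cells, so it cannot test intervals where few cells hold most UMIs. Scrublet's automatic threshold called 1 and 2 barcodes, so doublets were kept, and an alternative removed the highest 8% of scores (788 and 811 barcodes).

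A rule picked 10 members for all clusters. In each coarse cluster of at least 100 cells per library it also picked the 4 called members each way whose interval was farthest from 1. Pathway genes were ranked the same way in macrophage-like and monocyte-like cells. Not every gene so picked is named in the text, and which were left out followed no rule. Other genes named were chosen after their values were seen. Tools were Python 3.11.15, NumPy 2.4.6, pandas 2.3.3, SciPy 1.17.1, scanpy 1.11.5 and matplotlib 3.10.9. The result of 1 pathway gene is not reported here.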

Additional observations from a re-analysis of the deposited data

Results flagged for a closer look

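Several members were at least 1.5-fold higher in some cell types of the library labelled transgenic and at least 1.5-fold lower in others. With 1 library per genotype these differences between cell types were not tested. Irf7 had a ratio of 1.99 in B-like cells, 0.562 in macrophage-like cells and 0.332 in the low-UMI cluster led by haemoglobin and Fcgbp, where it was 1.10 with the barcodes of high gene number added. Isg20 had a ratio of 1.52 in the lymphocyte cluster led by Gzma, Il17a and Xcl1, 0.595 in macrophage-like cells and 0.257 in the low-UMI haemoglobin cluster. With those barcodes Isg20 was 1.16 in macrophage-like cells. Isg15 had a ratio of 1.58 in that lymphocyte cluster, 2.01 in neutrophil-like, 0.502 in dendritic-like and 0.329 in fibroblast-like cells. Rtp4 had a ratio of 1.76 in B-like cells, 2.42 in the lymphocyte cluster and 0.325 in dendritic-like cells. Ifi27l2a had a ratio of 1.83 in B-like, 2.50 in neutrophil-like and 1.82 in fibroblast-like cells and 2.10 in the low-UMI haemoglobin cluster, but 0.564 in dendritic-like cells. In neutrophil-like cells the median log2 ratio of all genes was 0.63.

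The barcodes that the deposited clusters leave out for their immunoglobulin share, 1218 in wild type and 1160 in the other library, also held member UMIs. Of 34 members counted there, 13 were higher in the library labelled transgenic, against 20% of all genes, and 0 lower, against 4.53%.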

How the results depend on the processing

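No paired analysis was possible because each genotype has 1 library, so leaving out a replicate was not possible either. Of the counts of members past the fold, 221 values under the alternatives were within 1.5 times the reported count and 83 were not. Of the other values (single ratios, shares of cells and shares of promoters), 985 kept within their interval, 88 moved and 10 changed direction. Of those that moved, 18 were shares of cells taken without thinning. Adding barcodes of high gene number, and leaving out barcode sequences found in both libraries, the 5 cells with most early-set UMIs, or cells with a T or NK marker, were chosen after seeing the data. The causes were not tested. Counts are given as members higher, then lower. The number of members tested varied with the setting. The share of all genes past the fold was not taken under these alternatives, except in some clusters with added barcodes. The counts therefore do not show whether members moved more than other genes.

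With median-of-ratios scaling, neutrophil-like cells had 8 higher and 3 lower, fibroblast-like cells 2 lower and the Arg1 cluster 1 lower. With totals without the 20 highest genes, neutrophil-like cells had 3 lower and the Arg1 cluster 1 lower. At 50 UMIs, the Lef1 cluster had 0 higher and 0 lower, the low-UMI Mcpt1 cluster 1 and 1, the low-UMI haemoglobin cluster 2 and 0, fibroblast-like cells 1 and 1, and the Cd209a cluster 0 and 3. Dendritic-like cells had 2 lower and the Arg1 cluster 15 higher. With at least 1 UMI in each library, there were 1 lower in B-like cells, 4 lower in the Lef1 and the Gzma clusters and 5 lower in the Mcpt1 cluster. The haemoglobin cluster then had 12 higher and 8 lower, dendritic-like cells 2 higher, and fibroblast-like cells 5 higher and 11 lower.

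At 2-fold, higher members numbered 1 in B-like, 2 in macrophage-like and 3 in monocyte-like cells, 0 in the Lef1, 2 in the Gzma and 0 in the Cd209a cluster, and 1 in fibroblast-like cells and the larger finer monocyte-like cluster. Lower ones numbered 0 in macrophage-like and neutrophil-like cells and in the Lef1 and Mcpt1 clusters, 2 in the haemoglobin cluster, 1 in dendritic-like and fibroblast-like cells and 7 in the Cd209a cluster. With the mean of per-cell CPM, lower members numbered 1 in B-like, 4 in macrophage-like, 0 in neutrophil-like and 9 in fibroblast-like cells, and higher ones 3 in the Mcpt1, haemoglobin and Cd209a clusters. With cells of at least 1000 UMIs, the Mcpt1 cluster had 6 lower and the haemoglobin cluster 3 higher and 1 lower. Without the 8% highest doublet scores, the Lef1 cluster had 0 lower, the Mcpt1 cluster 1 lower, dendritic-like cells 1 higher and the Cd209a cluster 0 higher.

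With finer clusters weighted equally, macrophage-like cells had 1 higher and 14 lower, monocyte-like cells 24 higher and dendritic-like cells 2 higher. Finer clusters with under 30 cells in a library were left out. Dendritic-like, neutrophil-like and fibroblast-like cells then held 1 finer cluster each, so nothing was weighted there. In dendritic-like cells this left out the plasmacytoid part (22 and 47 cells). Values of these 3 cell types still count in the totals above. Lower ones numbered 1 in B-like cells, 3 in the Lef1, 1 in the Gzma and 0 in the Mcpt1 cluster. Ratios that changed direction were Ifit1 (0.641) and Igtp (0.942) in macrophage-like cells and Stat2 (0.997) in the Mcpt1 cluster. With barcodes of high gene number added, macrophage-like cells had 7 higher and 0 lower, the Lef1 cluster 3 lower, the Gzma cluster 1 lower, the haemoglobin cluster 17 higher and 0 lower, dendritic-like cells 2 higher and fibroblast-like cells 1 higher and 7 lower. Isg20 then changed direction in macrophage-like cells (1.16), Ifih1 (1.03), Irf7 (1.10) and Irgm1 (1.27) in the haemoglobin cluster, and Gbp7 (1.03) and Stat2 (1.10) in fibroblast-like cells. Without the 5 cells with most early-set UMIs, lower members numbered 0 in macrophage-like and 7 in fibroblast-like cells, 1 in the larger finer monocyte-like and the Arg1 cluster and 6 in the Cd209a cluster. The haemoglobin cluster had 3 higher and 3 lower, dendritic-like cells 1 higher, and Ifit1 in neutrophil-like cells a ratio of 0.669. Without cells holding a T or NK marker, monocyte-like cells had 1 lower. Depth limits the low members most, such as Ifit1 with 10 and 38 UMIs in macrophage-like cells.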
